A study of Homo sapiens with 9 samples.

Results

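The comparison described here is that of the 16 h library with the 8 h library of H460-ERT2-RUNX3 MT(K94/171R) cells. It shows which genes went back toward their starting level after the first 8 h of serum stimulation and which went on. A gene was a member if either of these libraries gave it an FPKM of 1 or more, and 11280 of the 19869 genes in the table of this line were members. Of the remaining genes, 5261 were listed at 0 in both libraries and 3328 were above 0 but below the minimum. FPKM expresses a gene's fragment count relative to its transcript length and to all mapped fragments of the library.

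H460 is a human large cell lung cancer line from a pleural effusion, labelled as RUNX3-inactivated, and it is known to carry intact p53. The study also describes it as K-RAS-activated. The stable line expresses RUNX3 fused to ERT2, a form of the estrogen receptor's ligand-binding domain that keeps the fusion protein out of the nucleus until 4-hydroxytamoxifen (4-OHT) is bound. In K94/171R, the acetylated lysines through which RUNX3 binds BRD2 are replaced by arginine. Serum was withheld from all cells for 24 h, then 10% serum was added back together with 4-OHT at 1 μM, and RNA was taken 8 h or 16 h later, and the 0 h library is the starved state, labelled as control. The other lines of the series, treated and sampled in the same way, were H460 cells without the fusion protein and H460-ERT2-RUNX3 WT cells, which gave 9 libraries in all. Each condition had 1 library, so no difference below has a replicate check and no test was run. The number of clones behind a line and the promoter of the fusion gene were not given in the sources used here. In one set of the authors' column headings the last K94/171R time point reads 24 h, whereas the sample labels give 16 h, and the labels were followed.

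Serum starvation holds normal cells before the restriction (R)-point of G1, and serum lets them pass it. The first genes to answer are immediate early genes, followed by MYC-driven genes for ribosome assembly and then by E2F-driven genes for DNA replication, while genes that mark starvation and quiescence are shut off. Genes for mitosis come last, in G2. RUNX3 is a DNA-binding transcription factor that works with CBFB, and BRD2 is a bromodomain protein that reads acetylated lysines.

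FPKM summed to 588000 at 8 h and 566000 at 16 h, and the 50 genes with the highest FPKM held 24.9% and 25.5% of the sum. The number of reads is unknown. The 16 h library had a depth of 0.986 relative to the 8 h library, judged from the smallest FPKM steps of 107 low genes. The libraries were epithelial by their keratins: KRT8 was at 698 and 569 FPKM and KRT18 at 554 and 353 FPKM at 8 h and 16 h. EPCAM was at 0.248 and 0.313 FPKM, CDH1 was listed at 0 in both libraries and the 6 lung alveolar and airway markers, among them NKX2-1 and SFTPC, summed to 0.321 and 0.190 FPKM. PTPRC, a marker of blood cells, and CD3E, a marker of T cells, were at or below 0.0150 FPKM. The blood list nevertheless summed to 50.6 and 61.7 FPKM through CD68 and CD14.

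A change is log2((FPKM at 16 h + 0.05)/(FPKM at 8 h + 0.05)). The added 0.05 FPKM shrinks the change of low genes. A gene is said to have risen or fallen where this change was at least 1 or at most -1. By this measure 300 members, 2.66%, rose and 173 members, 1.53%, fell between 8 h and 16 h, which together are 4.19% of the members. Past a log2 change of 2 there were 42 rises and 13 falls. The median change over all members was -0.02, the 5th and 95th percentiles were -0.69 and 0.79, and 77.5% of members changed by less than 0.5 in either direction. The change was above 0 for 48.0% of members.

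Low genes made most of the rises. Among the 2543 members with 1 to 5 FPKM in the higher library, 199 (7.83%) rose and 2.6% fell, and the standard deviation of the change was 0.714. Among the 933 members with 100 FPKM or more, 0.322% rose and 0.965% fell, and the standard deviation was 0.333. Of all members that rose or fell, 6 were listed at 0 in one of the libraries. A gene below 1 FPKM at 8 h was a member only if it was higher at 16 h. The minimum thus favours rises among such genes, and falls among genes below it at 16 h. At the edge of the call, SRRM3 lay just inside with a change of 1.00 and SH3RF2 just outside with 0.998, while RRP12 lay just inside the lower limit at 20.4 and 10.2 FPKM and LYSMD2 just outside it at 12.7 and 6.33 FPKM. At the edge of the minimum, CLDN16 reached 1.00 FPKM and IRF7 0.998 FPKM.

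**Figure D1:**
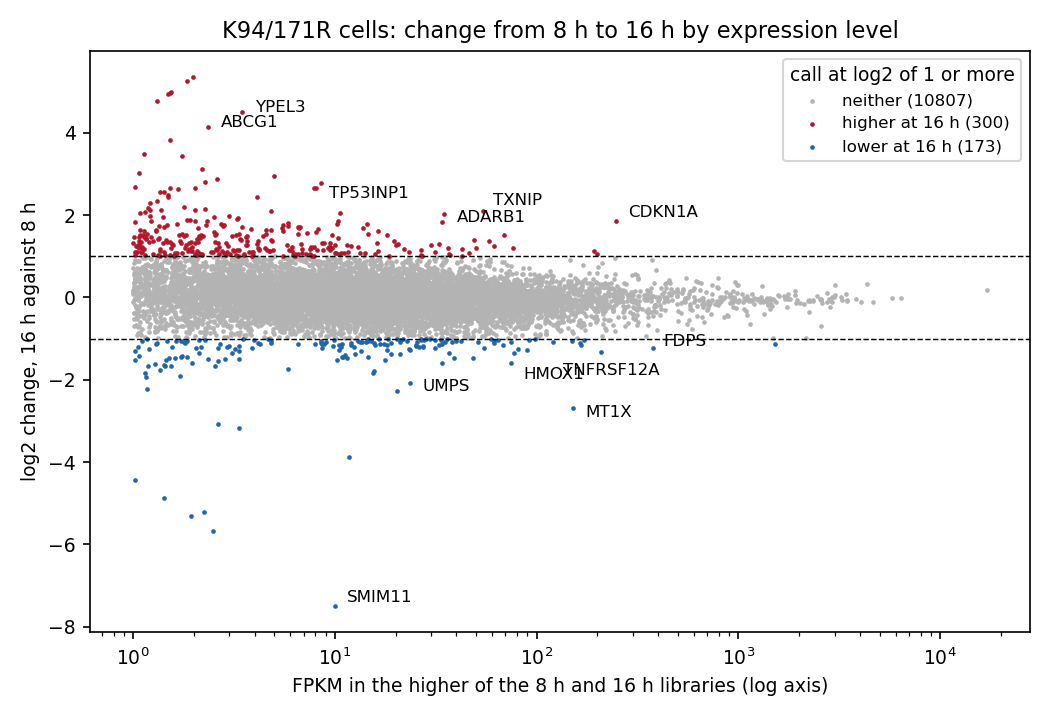
Log2 change from 8 h to 16 h in K94/171R cells (vertical axis) against the larger FPKM of both libraries (horizontal log axis), 1 point for each of the 11280 members, with dashed lines at log2 changes of -1 and 1. The 300 rises in red crowd at low FPKM, whereas the 173 falls in blue reach up to HSPA8 at 1519 FPKM.

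Genes were followed in 27 lists of pathways. These held 691 distinct members, of which 35 rose and 43 fell, and a gene could stand in more than 1 list. Over all members 2.66% rose and 1.53% fell, and 1 or 2 calls in a list were not read as a result about that list. Lists of genes that are active in starved or arrested cells lay above the median of all members, and lists of growth and DNA replication genes lay below it. The lists are described in the order of their place in the cycle, from the genes of arrest to those of mitosis. The changes from 0 h to 8 h and from 8 h to 16 h share the 8 h library, so a level that is low or high at 8 h moves them in opposite directions by itself, and levels at the 3 time points are therefore given side by side.

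Of the p53 target genes, 13 of 33 members rose and 0 fell, with a median change of 0.80 and 30 members above 0. p53 is a transcription factor that answers DNA damage and other stress by arrest or death of the cell. CDKN1A, which codes for the CDK inhibitor p21, was at 146, 68.5 and 247 FPKM at 0, 8 and 16 h, a 3.60-fold rise after 8 h. It dipped at 8 h and was highest at 16 h. TP53INP1, a promoter of p53 activity and autophagy, showed 6.99, 1.24 and 8.10 FPKM and had the largest rise of the list, 6.32-fold. BTG2, an anti-proliferative gene, was at 16.0, 9.49 and 34.1 FPKM. BBC3, which codes for the death-promoting protein PUMA, was at 3.60, 1.63 and 5.84 FPKM. Each of these genes was lowest at 8 h. MDM2, the ubiquitin ligase that degrades p53, was at 31.6, 21.3 and 42.8 FPKM and had a change of 1.01. GADD45A, a damage-response gene, was at 22.9, 16.4 and 28.7 FPKM with a change of 0.80, short of the call. BAX, a pore-forming protein of the mitochondrial death pathway, was at 159, 123 and 144 FPKM with a change of 0.23, and the death receptor gene TNFRSF10A had the lowest change of the list, -0.28. Over the list, the median was -0.47 for 8 h against 0 h and 0.29 for 16 h against 0 h. ACER2, named after its values were seen, rose and was at 1.12, 0.798 and 2.82 FPKM. It was a member only through the 16 h library, which favours rises in the count.

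Of the FOXO and starvation genes, 6 of 23 members rose and 0 fell, with a median change of 0.70 and 21 members above 0. FOXO factors are held out of the nucleus by growth factor signalling, and their target genes are active in starved cells. TXNIP, an inhibitor of thioredoxin and of glucose uptake, was at 70.5, 12.7 and 54.2 FPKM, which is a 4.26-fold rise after 8 h. The stretch of 200 bases before its start site is shown because it holds GTAAACA, the core of a forkhead motif, which is in 14.3% of 21 promoters of this list and in 2.24% of the 9236 promoters of members that had a window (RefSeq, GRCh38.p14, chr1:145996580-145996779, minus strand, with the motif in capitals).
TXNIP: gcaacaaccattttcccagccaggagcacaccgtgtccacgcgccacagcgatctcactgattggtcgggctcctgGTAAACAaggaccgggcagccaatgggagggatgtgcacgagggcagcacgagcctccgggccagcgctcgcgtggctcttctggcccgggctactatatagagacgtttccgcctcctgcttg
In all motif counts the window ran from 250 bases before to 50 bases after the start site and both strands were searched, and a match is a description of the letters only. YPEL3, a growth-suppressing gene, was at 3.69, 0.106 and 3.47 FPKM and had the largest rise of the list, 4.50 on the log2 scale. With a level below 1 FPKM at 8 h, YPEL3 was a member only through the 16 h library. CCNG2, a cyclin of quiescent cells, was at 12.2, 4.25 and 13.8 FPKM. These genes lost most of their transcript by 8 h and were near the starved level again at 16 h. PDK4, which blocks the entry of pyruvate into the citric acid cycle, was at 66.1, 38.1 and 69.2 FPKM with a change of 0.86. The insulin signalling gene IRS2 had a change of 0.35, and PINK1, a kinase of mitochondrial quality control, had the lowest change of the list, -0.15. The list's median was -0.80 for 8 h against 0 h and -0.10 for 16 h against 0 h. TP53INP1 and SESN1 stand in this list and in the p53 list. KLF9, named after its values were seen, was at 0.688, 0.206 and 1.21 FPKM. Like YPEL3, it was a member only through the 16 h library, which favours rises in the count of the list.

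Of the circadian clock genes, 8 of 17 members rose and 0 fell, with a median change of 0.68. The rises were among genes that the clock's activators drive, but not all such genes rose. CRY1, BHLHE40 and BHLHE41, named after their values were seen, had changes of 0.36, 0.007 and 0.57, short of the call. The genes of the activators themselves did not reach the call either. PER3, a repressor of the clock, was at 1.91, 0.283 and 2.27 FPKM, a 6.96-fold rise. PER1 was at 4.62, 1.95 and 6.54 FPKM and PER2 at 2.28, 0.481 and 1.90 FPKM. NR1D1, the nuclear receptor REV-ERBα, was at 8.33, 3.65 and 8.14 FPKM. Of the activators, CLOCK was at 5.48, 6.99 and 5.99 FPKM, and BMAL1 had the lowest change of the list, -0.49. PER2 and PER3 were below 1 FPKM at 8 h and so were members only through the 16 h library. The same holds for CRY2 and TEF, named after their values were seen. This favours rises in the count of the list. All genes of this list that rose were under 10 FPKM at 16 h, and the list's median was 0.41 at a minimum of 5 FPKM.

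MYC and ribosome biogenesis genes moved the other way: 15 of 42 members fell, 0 rose, and all 42 had a change below 0, with a median of -0.89. These genes code for the nucleolar factors that make and fold ribosomal RNA. MRTO4, a ribosome assembly factor, was at 18.6, 38.7 and 13.9 FPKM and had the largest fall of the list, 2.78-fold. UTP20, a factor of small-subunit processing, was at 9.31, 17.6 and 7.97 FPKM. Nucleolin, NCL, was at 226, 349 and 183 FPKM with a change of -0.93. These genes were highest at 8 h and below the starved level at 16 h. MYC itself was at 51.9, 69.2 and 52.7 FPKM with a change of -0.39, nucleophosmin, NPM1, was at 1097, 1107 and 826 FPKM, and HEATR1 had the change closest to 0 in the list, -0.15. The list's median was 0.74 for 8 h against 0 h and -0.14 for 16 h against 0 h. The 78 cytosolic ribosomal protein genes, the protein parts of the same particle, had changes from -0.24 for RPS26 to 0.14 for RPL36, with a median of -0.07 and no call.

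The E-box CACGTG, which MYC and the clock's activators can bind, was in 35.3% of 34 promoters of the ribosome biogenesis list and in 10.6% of the 9236 promoters of members. It was in 18.3% of 120 promoters of members that fell and in 8.76% of 217 promoters of members that rose. The lists did not divide this way. The E-box was in 23.5% of 17 promoters of the circadian list and in 19% of 21 of the FOXO and starvation list, both with medians above 0. It was in 8.33% of 48 promoters of the G1/S list, whose median was below 0. Among list members outside chromosomes 8 and 18 that hold the E-box within 200 bases before the start site, UTP20 had the largest fall. Its stretch is shown (RefSeq, GRCh38.p14, chr12:101279905-101280104, plus strand, E-box in capitals).
UTP20: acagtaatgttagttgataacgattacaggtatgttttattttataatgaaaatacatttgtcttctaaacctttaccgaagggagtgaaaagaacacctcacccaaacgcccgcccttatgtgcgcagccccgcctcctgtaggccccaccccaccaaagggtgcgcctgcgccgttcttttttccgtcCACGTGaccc

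**Figure D2:**
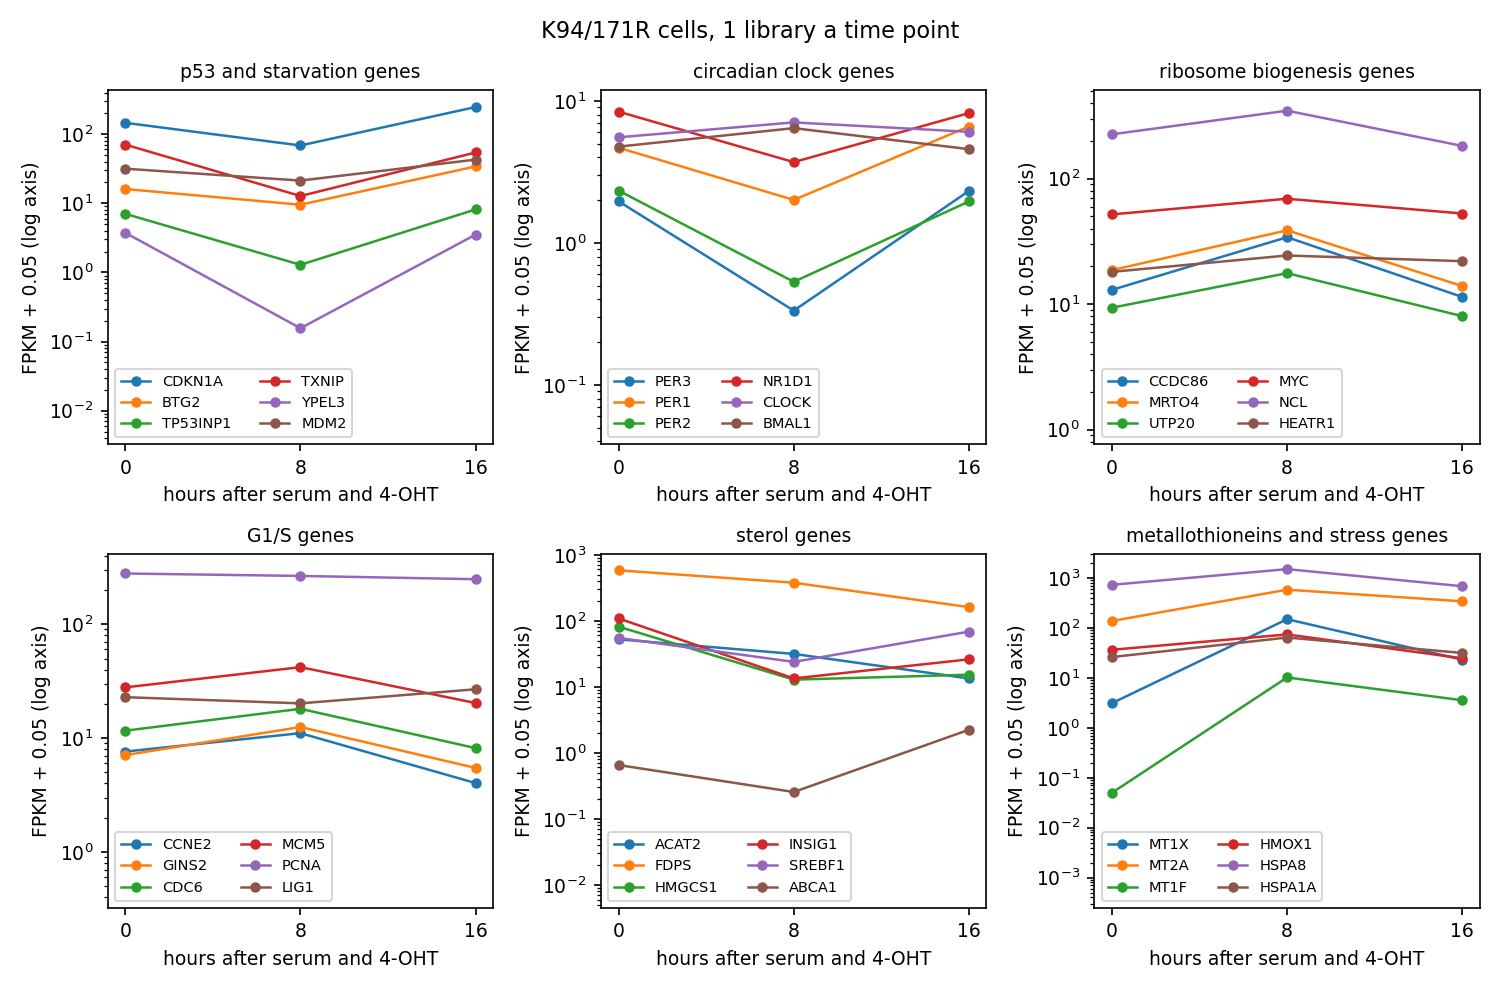
FPKM plus 0.05 (vertical log axis) at 0, 8 and 16 h after serum and 4-OHT (horizontal axis) in K94/171R cells for 6 genes in each of 6 groups, 1 library for each point. CDKN1A, TXNIP and the PER genes form a dip at 8 h, MRTO4, CCNE2 and MT1X form a peak at 8 h, and FDPS and ACAT2 are lower at each step.

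Of the G1/S and DNA replication genes, 14 of 61 members fell and 0 rose, with a median change of -0.61 and 57 members below 0. These are mostly targets of E2F factors that build and fire the replication origins. CCNE2, a cyclin that activates CDK2 at the start of S phase, was at 7.57, 11.0 and 3.98 FPKM and had the largest fall of the list, 2.74-fold. CDC6, which loads the replicative helicase, was at 11.6, 18.0 and 8.12 FPKM. MCM5, a subunit of that helicase, was at 27.8, 41.9 and 20.3 FPKM. These genes were highest at 8 h and lower at 16 h than in starved cells. GINS2, a part of the active helicase, was at 7.04, 12.5 and 5.42 FPKM. The sliding clamp gene PCNA was at 279, 265 and 248 FPKM with a change of -0.10, and the DNA ligase gene LIG1 had the highest change of the list, 0.41. The E2F motif TTTCCCGC was in 25% of 48 promoters of this list and in 2.77% of those of all members. The stretch of GINS2 is shown because it holds this motif, on the opposite strand, 31 to 24 bases before the start site (chr16:85688955-85689154, minus strand, motif in capitals).
GINS2: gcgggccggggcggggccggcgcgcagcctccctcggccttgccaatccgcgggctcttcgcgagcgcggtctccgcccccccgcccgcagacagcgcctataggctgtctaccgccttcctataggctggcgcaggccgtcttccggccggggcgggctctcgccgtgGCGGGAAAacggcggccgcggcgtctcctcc

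The G2/M and mitosis genes had a median change of 0.32, with 53 of 59 members above 0, but 1 member rose and 0 fell. Over all members 2.66% rose and 1.53% fell. ASPM, a spindle pole protein gene, was at 23.6, 18.1 and 37.1 FPKM, a 2.05-fold rise. CCNB1, the cyclin of mitotic entry, was at 110, 124 and 129 FPKM with a change of 0.06, and PLK1, a mitotic kinase gene, had a change of 0.05. FOXM1, the transcription factor of the mitotic genes, was at 31.9, 31.7 and 30.1 FPKM, and MKI67, a proliferation marker, at 26.7, 28.5 and 27.6 FPKM. FOXM1 and MKI67 were thus about as high at 0 h as after serum, and whether the cells were arrested at 0 h was not tested. CDC20, the activator of the anaphase-promoting complex, had the lowest change of the list, -0.35. The cell cycle homology motif TTTGAA was in 66% of 50 promoters of this list and in 9.45% of those of all members. The stretch of ASPM is shown because it holds the motif on the opposite strand, 113 to 108 bases before the start site (chr1:197146670-197146869, minus strand, motif in capitals).
ASPM: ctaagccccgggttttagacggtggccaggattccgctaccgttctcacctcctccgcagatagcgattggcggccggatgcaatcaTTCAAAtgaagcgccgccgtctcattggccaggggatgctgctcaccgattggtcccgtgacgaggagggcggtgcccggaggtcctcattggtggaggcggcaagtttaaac
Of the 14 members among cyclins, CDKs and CDK inhibitors of G1, CDKN1A and CCNG2 rose. CCND3, a D-type cyclin, had the lowest change of that list, -0.60, at 29.4, 45.4 and 29.9 FPKM. CCND1 was at 43.7, 47.7 and 46.3 FPKM. The 55 replication-dependent histone genes gave 10 members, 1 of which, H3C7, fell from 1.50 to 0.511 FPKM. H3C7 was a member only through the 8 h library.

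The genes of cholesterol synthesis were mostly low by 8 h and remained low at 16 h. Their median change was -1.43 for 8 h against 0 h, -0.18 for 16 h against 8 h and -1.62 for 16 h against 0 h. Within the second step, 2 of 24 members rose and 2 fell, where 2.66% of all members rose and 1.53% fell. HMGCS1, an early enzyme of the pathway, was at 81.3, 12.8 and 15.2 FPKM, and INSIG1, which holds back the maturation of SREBP factors, was at 108, 13.3 and 26.0 FPKM with a change of 0.96, short of the call. Both were far below the starved level at 8 h and at 16 h. STARD4, a sterol carrier gene, was among the members that rose, at 40.1, 12.0 and 26.7 FPKM, and it was named after its values were seen. FDPS and ACAT2 went lower still. FDPS, which makes farnesyl diphosphate, was at 581, 377 and 161 FPKM. ACAT2, which makes the acetoacetyl-CoA at the start of the pathway, was at 52.3, 31.4 and 13.3 FPKM. CCAAT, the box bound by NF-Y, was in 83.3% of 18 promoters of the list and in 36.9% of those of all members. It was not particular to this list. The share was 72% in the G2/M list and 60.4% in the G1/S list, and 26.5% in the ribosome biogenesis list. The stretch of FDPS is shown with its 3 matches to CCAAT (chr1:155308666-155308865, plus strand, matches on either strand in capitals).
FDPS: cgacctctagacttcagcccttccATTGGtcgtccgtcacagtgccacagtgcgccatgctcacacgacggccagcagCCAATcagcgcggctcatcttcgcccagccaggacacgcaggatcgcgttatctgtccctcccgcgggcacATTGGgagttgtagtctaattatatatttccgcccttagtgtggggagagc

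In the fatty acid list, 1 of 13 members rose and 0 fell, where 2.66% of all members rose and 1.53% fell. SREBF1, which codes for the transcription factor SREBP-1 of lipid synthesis, was at 54.9, 23.8 and 68.5 FPKM, a 2.87-fold rise. Its target FASN, fatty acid synthase, was at 110, 57.6 and 69.0 FPKM, and SCD, the stearoyl-CoA desaturase gene, was at 601, 306 and 212 FPKM. FADS2, a desaturase gene of polyunsaturated fatty acids, had the lowest change of the list, -0.86, and its neighbour FADS1 was at 229, 132 and 77.0 FPKM. SREBF1 is also a target of LXR, the nuclear receptor that senses oxysterols. A list of LXR targets was added after the values were seen: of its 10 members 4 rose, SREBF1, APOE, ABCA1 and ABCG1, 0 fell and the median change was 0.51. APOE, ABCA1 and ABCG1 were below 1 FPKM at 8 h and so were members only through the 16 h library. This favours rises, and the count was not read as a result. SCD and SMPDL3A, also in this list, had changes of -0.53 and -0.52. ABCA1 and ABCG1, which export cholesterol, were at 0.603, 0.205 and 2.19 FPKM and at 0.532, 0.0878 and 2.36 FPKM at 0, 8 and 16 h. Both were highest at 16 h, at levels that rest on few reads.

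Metallothioneins are small proteins that bind zinc and other metals, and 3 of the 9 metallothionein genes in the table, MT1X, MT1F and MT2A, were highest at 8 h. MT1X was at 3.08, 151 and 23.2 FPKM, a 6.48-fold fall after 8 h that left it above the starved level. MT1F was listed at 0 at 0 h and was at 10.2 and 3.53 FPKM at 8 h and 16 h. MT2A, named after its values were seen, was at 139, 589 and 344 FPKM with a change of -0.78. MT1A was at 46.5, 64.0 and 70.0 FPKM with a change of 0.13, and MT1B, MT1E, MT1G, MT1H and MT1M were listed at 0 in all 3 libraries. These genes are near-identical copies and reads may be split among them, so the value of a single copy is uncertain. The stretch of MT1X is shown with its 2 matches to TGCGCNC, the core of the metal response element (chr16:56682270-56682469, plus strand, matches in capitals), a short core that was also in 32.1% of the promoters of all members.
MT1X: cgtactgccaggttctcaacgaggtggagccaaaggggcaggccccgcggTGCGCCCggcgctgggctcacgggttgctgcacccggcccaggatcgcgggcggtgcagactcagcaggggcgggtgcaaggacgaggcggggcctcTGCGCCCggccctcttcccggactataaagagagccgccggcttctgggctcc

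Of the heat shock genes, 2 of 20 members fell and 0 rose, with a median change of -0.53 and 16 members below 0. HSPA8, the constitutive HSC70 chaperone gene, was at 736, 1519 and 690 FPKM. HSPA1A, the inducible HSP70, was at 26.2, 64.7 and 31.7 FPKM, and HSP90AA1 was at 730, 1147 and 738 FPKM with a change of -0.64. These genes were near the starved level again at 16 h. CRYAB, a small heat shock protein gene, had the highest change of the list, 0.78, and went on from 1.15 through 4.48 to 7.74 FPKM. The list's median was 0.65 for 8 h against 0 h and 0.15 for 16 h against 0 h.

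In the ATF4 and integrated stress response list, 4 of 33 members fell and 0 rose, and 25 were below 0. They were ATF5, a transcription factor gene, at 9.29, 18.2 and 7.49 FPKM, SLC7A5, an amino acid transporter gene, STC2, a secreted glycoprotein gene, and CHAC1, which degrades glutathione. DDIT3, the CHOP transcription factor gene, was at 19.0, 20.2 and 14.6 FPKM, and ASNS, asparagine synthetase, was at 46.2, 35.0 and 37.8 FPKM. SESN2, a stress-responsive inhibitor of mTORC1 signalling, had the highest change of the list, 0.66. Of the 32 NRF2 target genes 1 fell, where 1.53% of all members fell. This was HMOX1, haem oxygenase 1, at 36.7, 74.5 and 24.7 FPKM, while AKR1B10 had the highest change, 0.31. The 22 ER chaperone and unfolded protein response genes held no call and ranged from -0.28 for ERN1 to 0.57 for HERPUD1.

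Genes of signalling outputs held 1 or 2 calls a list. With 2.66% of all members rising and 1.53% falling, these counts were not read as results about the lists. Among 26 immediate early genes BTG2 rose and DUSP2 had the lowest change, -0.94, while FOS was at 45.4, 12.0 and 14.0 FPKM and EGR1 at 28.2, 20.8 and 19.5 FPKM. Among 20 ERK feedback genes DUSP6, the phosphatase of ERK, rose from 18.5 to 49.0 FPKM, and PHLDA2 had the lowest change, -0.66. In the TGF-beta list, ID1, an inhibitor of differentiation factors, was at 13.3, 80.6 and 33.8 FPKM and fell, and TGFBR3, a co-receptor gene, was at 6.90, 3.34 and 7.89 FPKM and rose. ID1 thus stayed above its starved level and TGFBR3 ended near it. In the YAP/TEAD and SRF list ACTA2, smooth muscle actin, rose from 13.1 to 26.8 FPKM, and the cytoplasmic actin gene ACTG1, at 1861, 2162 and 1090 FPKM, had a change of -0.99, just short of the call. In the inflammatory list the chemokine genes CXCL2 and CCL20 fell, CXCL2 from 25.1 to 11.3 FPKM, and IL1B had the highest change, 0.68.

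Further lists held single genes past the call. Over all members 2.66% rose and 1.53% fell, so a single call in a list of this size was not read as a result about the list. IFIT1 rose among 33 interferon-stimulated genes, from 2.62 to 6.16 FPKM. Among 40 glycolysis and hypoxia genes, the glucose transporter gene SLC2A3 was at 33.4, 33.2 and 76.6 FPKM and rose, and ADM, adrenomedullin, fell from 13.0 to 6.25 FPKM. BBC3 was the 1 of 13 BCL2 family genes that rose, and BAK1 had the lowest change, -0.34. The 6 members among AhR target genes and the 7 among estrogen receptor target genes held no call. They ranged from -0.98 for CYP1B1 to 0.61 for AHR and from -0.46 for IGFBP4 to 0.81 for ESR1. The 13 mitochondrially encoded genes were listed at 0 in every library of this line.

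RUNX3 rose, in a list of 22 RUNX factors and partners that held no other call. Over all members 2.66% rose, so a single call was not read as a result about the list. RUNX3 was below 1 FPKM at 8 h and so was a member only through the 16 h library. It was at 2.12, 0.712 and 2.11 FPKM, a change of -1.51 to 8 h and of 1.50 after it. This was a low level in both libraries: 1.29% of the members were below it at 8 h and 9.35% at 16 h. Reads of the fusion gene and of the native gene cannot be told apart in these values. ESR1, whose ligand-binding domain is the source of ERT2, was at 3.22, 2.04 and 3.61 FPKM, also lowest at 8 h. CBFB, the partner that holds RUNX factors on DNA, was at 44.6, 50.9 and 44.3 FPKM with a change of -0.20, and TBP had the lowest change of the list, -0.50.

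Beyond the lists, 8705 members with a symbol and at least 5 FPKM in the higher library were ranked by their change. Of these 101, 1.16%, rose and 104, 1.19%, fell. This minimum favours rises among genes below it at 8 h, and falls among genes below it at 16 h. The 10 largest rises were, from the top, HS3ST6, NDUFC2-KCTD14, FUOM, TP53INP1, TXNIP, UBALD2, ADARB1, EPS8L2, CDKN1A and BTG2. HS3ST6, NDUFC2-KCTD14, FUOM, TP53INP1, UBALD2 and EPS8L2 were below 5 FPKM at 8 h and so were ranked only through the 16 h library. HS3ST6, a heparan sulfate sulfotransferase gene (GRCh37 chr16:1961476-1968416), was at 1.18, 0.606 and 5.00 FPKM. FUOM, fucose mutarotase (chr10:135168662-135171529), was at 3.48, 1.19 and 7.86 FPKM. ADARB1, an RNA-editing enzyme gene (chr21:46493768-46646475), was at 9.31, 8.46 and 34.8 FPKM. These genes ended well above the starved level, whereas UBALD2 (chr17:74261429-74267379), at 9.67, 2.54 and 10.7 FPKM, went back to it. EPS8L2, an actin regulator gene (chr11:694438-727727), was at 4.04, 2.81 and 10.4 FPKM. NDUFC2-KCTD14 is a read-through model that shares exons with NDUFC2, and while it went from 1.19 to 8.55 FPKM, NDUFC2 stayed at 152 and 147 FPKM.

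The 10 largest falls were, from the largest, SMIM11, MT1X, XPNPEP3, UMPS, PASK, DNLZ, HMOX1, CCDC86, MT1F and NME1-NME2. SMIM11, XPNPEP3, PASK, DNLZ and MT1F were below 5 FPKM at 16 h and so were ranked only through the 8 h library. The fall of SMIM11 (chr21:35747779-35789259), from 9.99 to 0.00565 FPKM, stood beside a duplicate model, ENSG00000273590, that shares 869 exon bases and went from 11.6 to 18.9 FPKM. Their sum was 20.5, 21.6 and 18.9 FPKM, a change of -0.19. XPNPEP3, a mitochondrial aminopeptidase gene (chr22:41253081-41328819), was at 22.6, 20.3 and 4.15 FPKM and so fell only in the second step. UMPS, the enzyme of the last steps of uridine monophosphate synthesis (chr3:124449280-124468120), was at 15.4, 23.4 and 5.51 FPKM. PASK, a nutrient-sensing kinase gene (chr2:242045514-242089679), was at 4.09, 15.5 and 4.30 FPKM. The PASK level thus returned to that of starved cells, and that of UMPS went below it. DNLZ, a mitochondrial chaperone cofactor gene (chr9:139253932-139258196), was at 6.73, 15.5 and 4.49 FPKM, and CCDC86, a nucleolar protein gene (chr11:60609586-60618554), was at 12.9, 34.1 and 11.4 FPKM. NME1-NME2 is a read-through model as well: it was at 17.6 and 6.13 FPKM, while NME1 was at 369 and 346 and NME2 at 811 and 749 FPKM.

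Over the same 8705 genes, 3702 were highest at 8 h, 2877 were lowest at 8 h, 1006 were higher at each step and 1120 were lower at each step, and nothing was read from these counts because the steps share the 8 h library. From 0 h to 8 h, 1.27% of 11252 genes passed the call upward and 2.49% downward. Both steps passed a log2 change of 1 for 29 genes that were highest at 8 h, for 38 that were lowest at 8 h, for 1 that was higher at each step and for 0 that were lower at each step. The clearest peaks at 8 h by the smaller of the 2 steps were MT1X, PASK, CCDC86, MT1F, NME1-NME2 and TNFRSF12A, the receptor for TWEAK, which was at 85.9, 208 and 82.9 FPKM. The clearest dips were TXNIP, TP53INP1, UBALD2, RAB26, TSC22D3 and METTL27. RAB26, a vesicle-traffic GTPase gene, was at 10.5, 2.92 and 10.2 FPKM, and TSC22D3, the glucocorticoid-induced leucine zipper gene, was at 8.31, 2.01 and 6.70 FPKM. Apart from MT1X and MT1F, these 12 examples came back close to the starved level, and the largest log2 difference between 16 h and 0 h was -0.38, for TXNIP. Nothing was read from this return. The examples were picked for large opposite steps that share the 8 h library, and such a choice favours it.

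Few genes passed the call in the same direction in both steps. Nothing was read from this, because the steps share the 8 h library. NDUFC2-KCTD14 was the 1 gene past the call in both rising steps. Next to it, TUBB4A, a tubulin gene, was at 12.7, 21.9 and 50.2 FPKM, and SEMA3F, a guidance cue gene, was at 2.12, 3.13 and 5.38 FPKM. CHTF18, a clamp loader subunit gene, was at 5.52, 8.22 and 13.6 FPKM, and SERPINB2, plasminogen activator inhibitor 2, was at 90.8, 132 and 199 FPKM. The genes with the steadiest decline were ACAT2, FDPS, AP1M2, MMAB, FADS1 and ERG28. AP1M2, an adaptor subunit of vesicle coats, was at 22.1, 14.6 and 6.92 FPKM, MMAB, an enzyme of cobalamin metabolism, was at 43.2, 28.2 and 14.0 FPKM, and ERG28, a scaffold of sterol synthesis enzymes, was at 32.3, 18.6 and 11.7 FPKM. ACAT2, FDPS and ERG28 act in sterol synthesis.

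Some of these values depend on how reads of overlapping genes were assigned. Exon bases on the same strand were shared with another gene of the table by 47 of the 473 members that rose or fell and by 808 of all 11280 members. Among the genes named, exons on the opposite strand overlap those of XPNPEP3, PASK, DNLZ, CCDC86, CCNE2, TNFRSF12A, ATF5, ACAT2, MMAB, CYP1B1, FADS1, FADS2, HEATR1, RPL36, CHTF18, CRYAB, ACTA2, SREBF1, TSC22D3, EPS8L2, TP53INP1, PER3 and SMIM11. Exons on the same strand are shared by AHR with an unnamed gene model, by RPL36 with HSD11B1L and by FADS2 with FEN1. The kit marks strand, but whether the counting used it was not given in the sources used here. The members that fell were shorter than the rest: their exons covered a median of 3470 bases and their genes spanned a median of 14590 bases, against 4934 and 26133 for those that rose and 5462 and 33656 for all members.

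The same interval in the other lines shows whether the second 8 h looked alike without the mutant protein. Their table lists genes by locus identifiers, and the pairs of locus and Ensembl identifiers used here matched 946 genes to the K94/171R table, all on chromosome 1. Over all genes of these lines 1.54% of 11551 genes rose and 0.675% fell from 8 h to 16 h in H460 cells, and 14.3% of 11753 genes rose and 15% fell in H460-ERT2-RUNX3 WT cells. For 514 of the matched genes the FPKM was at least 1 at 8 h or 16 h in every line. Among them 5 (0.973%) rose and 11 (2.14%) fell in K94/171R cells, 3 (0.584%) rose and 3 (0.584%) fell in H460 cells, and 61 (11.9%) rose and 77 (15%) fell in H460-ERT2-RUNX3 WT cells. The tables were made separately, so changes within a line are set side by side and levels are not compared. Across these 514 genes, which are not independent replicates, the change in K94/171R cells went with that in H460 cells with a Pearson's r of 0.503 and a Spearman's rho of 0.548. With H460-ERT2-RUNX3 WT cells r was 0.0692 and rho was 0.0283. The standard deviation of the change was 0.417 in K94/171R, 0.340 in H460 and 0.978 in H460-ERT2-RUNX3 WT cells. These correlations describe 1 pair of libraries a line.

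**Figure D3:**
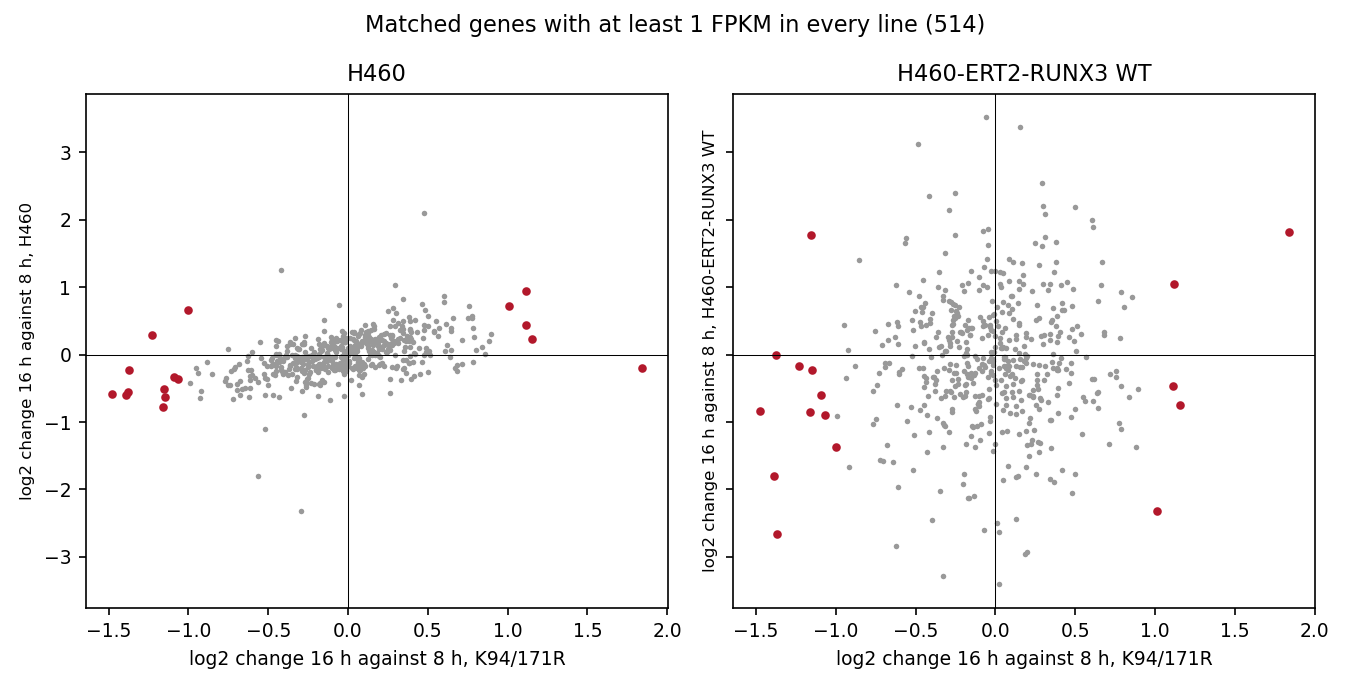
Log2 change from 8 h to 16 h in K94/171R cells (horizontal axes) against the same change in H460 cells (left) and H460-ERT2-RUNX3 WT cells (right), 1 point for each of 514 matched genes, with the 16 genes that rose or fell in K94/171R cells in red. On the left the points rise together along a flat slope (r = 0.503), and on the right they spread over a wider vertical range with no trend (r = 0.0692).

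The 11 matched genes that fell in K94/171R cells had a median change of -1.16 there, -0.51 in H460 cells and -0.83 in H460-ERT2-RUNX3 WT cells. In H460 cells 2 of them, FDPS and ARTN, were above 0 and 0 passed the call. MRTO4 was at 44.9 and 30.0 FPKM at 8 h and 16 h in H460 cells and at 38.3 and 21.5 FPKM in H460-ERT2-RUNX3 WT cells. FDPS went the other way in H460 cells, where it was at 180, 378 and 462 FPKM at 0, 8 and 16 h, and in H460-ERT2-RUNX3 WT cells it was at 162, 394 and 349 FPKM. FDPS was thus higher at 8 h than at 0 h in both of these lines and lower in K94/171R cells. Of the 5 genes that rose in K94/171R cells, 4 were above 0 in H460 cells and 0 passed the call there. BTG2, the remaining gene, was at 5.64 and 4.93 FPKM at 8 h and 16 h in H460 cells, and at 5.15 and 18.2 FPKM in H460-ERT2-RUNX3 WT cells, where its change was 1.82. TXNIP, paired by its symbol because its Ensembl identifiers differ, was at 22.5, 12.7 and 15.6 FPKM in H460 cells and at 18.6, 38.9 and 65.9 FPKM in H460-ERT2-RUNX3 WT cells. A dip at 8 h was therefore seen in both lines other than H460-ERT2-RUNX3 WT, with a return in H460 cells of 0.30 on the log2 scale against 2.09 in K94/171R cells. PER3 was at 0.606 and 0.602 FPKM in H460 cells, below the minimum.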

How the data were processed

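RNA was measured in 9 libraries, 1 for each of 3 lines at 0, 8 and 16 h, made with a stranded poly(A) kit. The deposited FPKM values were made by the authors from reads trimmed with Cutadapt, aligned to hg19 with STAR 2.5.0 and quantified with Cufflinks and Cuffdiff 2.2.1, as the study's methods and the submitters' processing notes state. The annotation and the strand setting were not given in the sources used here. The table of K94/171R cells and that of the other lines were made separately and hold no read counts, so the depth is unknown and intervals were not computed.

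Here FPKM values were taken as deposited. Log2 changes used a pseudocount of 0.05 and a minimum of 1 FPKM in the higher library, with Python 3.11.15, pandas 2.3.3, numpy 2.4.6 and matplotlib 3.10.9. With 1 library a side no test was run, and a call is a log2 change of at least 1 in size. The scripts were tested on simulated data. The members and gene lists were chosen with earlier results of these data known.

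Genes named were the 10 largest rises and falls at 5 FPKM or more, leaving out symbols that match patterns for small RNA genes and pseudogenes, the 6 clearest genes of each time shape, the extremes of each list with up to 4 defining members, RUNX3 and CBFB. Further genes are said to be named after their values were seen, apart from list members named to state a count of 5 or fewer, those at the edges of a threshold and partners in overlapping models. Older symbols were matched through RefSeq synonyms. Coordinates and overlaps are those of GENCODE on GRCh37, the same assembly as hg19. Promoters are RefSeq windows on GRCh38.p14, 250 bases before to 50 after the first listed start of a gene, and 9236 of 11280 members matched one. Printed stretches were chosen among list members with a window outside chromosomes 8 and 18. Each is that of the member with the largest change that holds the motif in its 200 bases before the start. Alternatives were other pseudocounts, minimums, scalings and calls, and pairing by symbol, which was added after the data were seen.
A few genes are not reported here.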

Additional observations from a re-analysis of the deposited data

Results flagged for a closer look

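Of the 16 matched genes that rose or fell in K94/171R cells between 8 h and 16 h, 2 passed the call in the opposite direction in H460-ERT2-RUNX3 WT cells, with 1 library a side in each line, and the difference was not tested. Over all 514 matched genes 11.9% rose and 15% fell in H460-ERT2-RUNX3 WT cells, so the count of 2 was not read as a result. PEA15, a regulator of ERK localisation, had a change of -1.15 in K94/171R cells and 1.78 in H460-ERT2-RUNX3 WT cells. It was at 40.6, 67.7 and 30.5 FPKM at 0, 8 and 16 h in the former and at 44.9, 66.3 and 227 FPKM in the latter. SAMD13 had a change of 1.01 in K94/171R cells and -2.31 in H460-ERT2-RUNX3 WT cells, with 5.76, 1.90 and 3.88 FPKM in the former and 2.98, 1.87 and 0.336 FPKM in the latter.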

How the results depend on the processing

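No paired analysis was possible because each condition has 1 library. The counts of 300 rises and 173 falls became 115 and 83 with a pseudocount of 1, 900 and 587 with no minimum FPKM, 101 and 107 with a minimum of 5 FPKM, and 42 and 13 with a call at a log2 change of 2. The share of rises among the calls was 63.4%, and it was 58.1% with a pseudocount of 1, 48.6% at 5 FPKM and 72.4% with equal FPKM sums. With a pseudocount of 1, 23 list genes rose. In the other lines, H460 gave 1 rise and 0 falls with a pseudocount of 1 and 0 of each at 5 FPKM, where r between K94/171R and H460 cells was 0.614. H460-ERT2-RUNX3 WT gave 39 rises at 5 FPKM, and 33 rises and 118 falls with equal sums. AP1M2 with a pseudocount of 1 (-0.97) and MMAB with a pseudocount of 1 (-0.96) or equal sums (-0.95) no longer passed the call. The median of the estrogen receptor list was 0.06, and -0.04 with no minimum or at 5 FPKM. No called value changed sign. Leaving out the 5 members whose symbols match the pattern for small RNA genes (U2AF1, U2AF2, U2AF1L4, U2SURP and MIR1915HG, which are protein-coding or host genes) left the counts at 300 and 173, since none of them passed the call. Depth limits genes under 5 FPKM most.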
